A study of Mus musculus with 6 samples.

Results

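The collagen and laminin genes examined in the mouse hippocampus were every gene with a symbol of a collagen chain (Col) or a laminin chain (Lama, Lamb or Lamc), together with Fn1, Nid1, Nid2, Hspg2, Agrn, Sparc, Dcn and Lum. They came to 42 of the 13321 genes in the deposited table and were taken by name, in a set chosen with earlier results of these data known. Being in that table depended on the level, since it lists only transcripts averaging 0.5 FPKM or more in either age group. The hippocampi were those of wild-type (WT) male mice of the inbred strain C57 BL/6, for which the labels name no drug, at 3 months (3M, libraries J11, J13 and J15) and at 22 months (22M, libraries 72, 76 and 78). Polyadenylated RNA was measured as FPKM, the fragments mapped to a transcript scaled by its length and by the library's total, and the FPKM of a gene's protein-coding transcripts were summed. Values of single libraries are given in the order J11, J13, J15 for 3M and 72, 76, 78 for 22M. Whether the 3 libraries of an age are from separate mice is not in the labels, and the p-values therefore refer to the spread between libraries, which may be technical. In whole tissue, fewer cells of a type and less RNA per cell cannot be told apart.

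Collagens are trimers of chains wound around each other, and laminins are cross-shaped trimers of an alpha, a beta and a gamma chain. Laminins and collagen IV form the networks of the basement membrane, which nidogens, perlecan and agrin link together, while fibrillar collagens form the fibrils of connective tissue. In the brain the basement membrane lies around blood vessels and under the meninges and the choroid plexus epithelium, and fibrillar collagens are made mainly by fibroblasts of the meninges and the larger vessels.

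The 6 libraries held the hippocampal neuron markers, with 12 of 12 found, none at 0 and a summed level of 386 to 624 FPKM in 3M and 529 to 569 FPKM in 22M. Markers of neighbouring tissue were found too, among them those of the choroid plexus, given with Col9a3. The 16 thalamus and habenula markers summed to 102 to 191 FPKM in 3M and to 68.5 to 81.9 FPKM in 22M, with 4 of 15 tested fallen, against 1.21% of all genes. The table holds no read counts, so each library's depth is unknown and counting error has no interval here. All genes together summed to between 318024 and 358073 FPKM per library.

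None of the collagen and laminin genes rose or fell between the ages by the adjusted test. Of the 42 genes, 40 averaged 0.5 FPKM or more over the libraries and were tested with limma on log2(FPKM + 0.5), with the Benjamini-Hochberg adjustment over all 13041 genes tested. "Rose" and "fell" are kept for an adjusted p under 0.05. By this test 0 of 40 rose and 0 of 40 fell, against 0.92% and 1.21% of all genes (2.13% in either direction), and the lowest adjusted p was 0.0845, for Col6a2. An unadjusted p under 0.05 was reached by 8 of 40 (20%), against 27% of all genes. With weights for the quality of each library in limma, 1 gene rose, Col6a2 (adjusted p = 0.0413). The share of all genes that rose with these weights is not given here, so this count cannot be set beside it.

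The thresholds in the study's methods, a P under 0.05 with a change of more than 1.5-fold, were used too, with P taken here as unadjusted, and "higher" and "lower" at these thresholds refer to them. Fn1, Col6a2, Col5a1, Col19a1 and Col12a1 were higher in 22M and Col4a1 was lower. The 5 higher genes were 12.5% of the 40, against 4.08% of all genes, and the 1 lower gene was 2.5%, against 4.22%, so 6 of 40 passed in either direction, against 8.3% of all genes. The age groups did not overlap in 9 of 40 genes (22.5%), against 34.4% of all genes. Of these, 6 were higher in 22M, namely the 5 above and Lama3, against 13.3% of all genes, and 3 were lower, namely Sparc, Col26a1 and Nid2, against 21.1%. For each of these 9 genes the exact two-sided permutation test gave p = 0.1, which no comparison of 3 libraries with 3 can go below. Col12a1, Lama3 and part of the Fn1 and Col19a1 sums are in the table only through their 22M mean. Col26a1 is there only through its 3M mean. The listing rule thus favours the direction in which these genes differ. Among the other tested genes, Lama4, Col3a1, Col27a1 and part of the Lamc1 sum are also there only through 22M. Of the genes not tested, Lamc3 is there only through 22M and Col16a1 only through 3M. The rule therefore bears on the counts of signs that follow as well. The median log2 fold change of the 40 genes was 0.08, against -0.05 for all genes, with 25 positive and 15 negative.

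**Figure D1:**
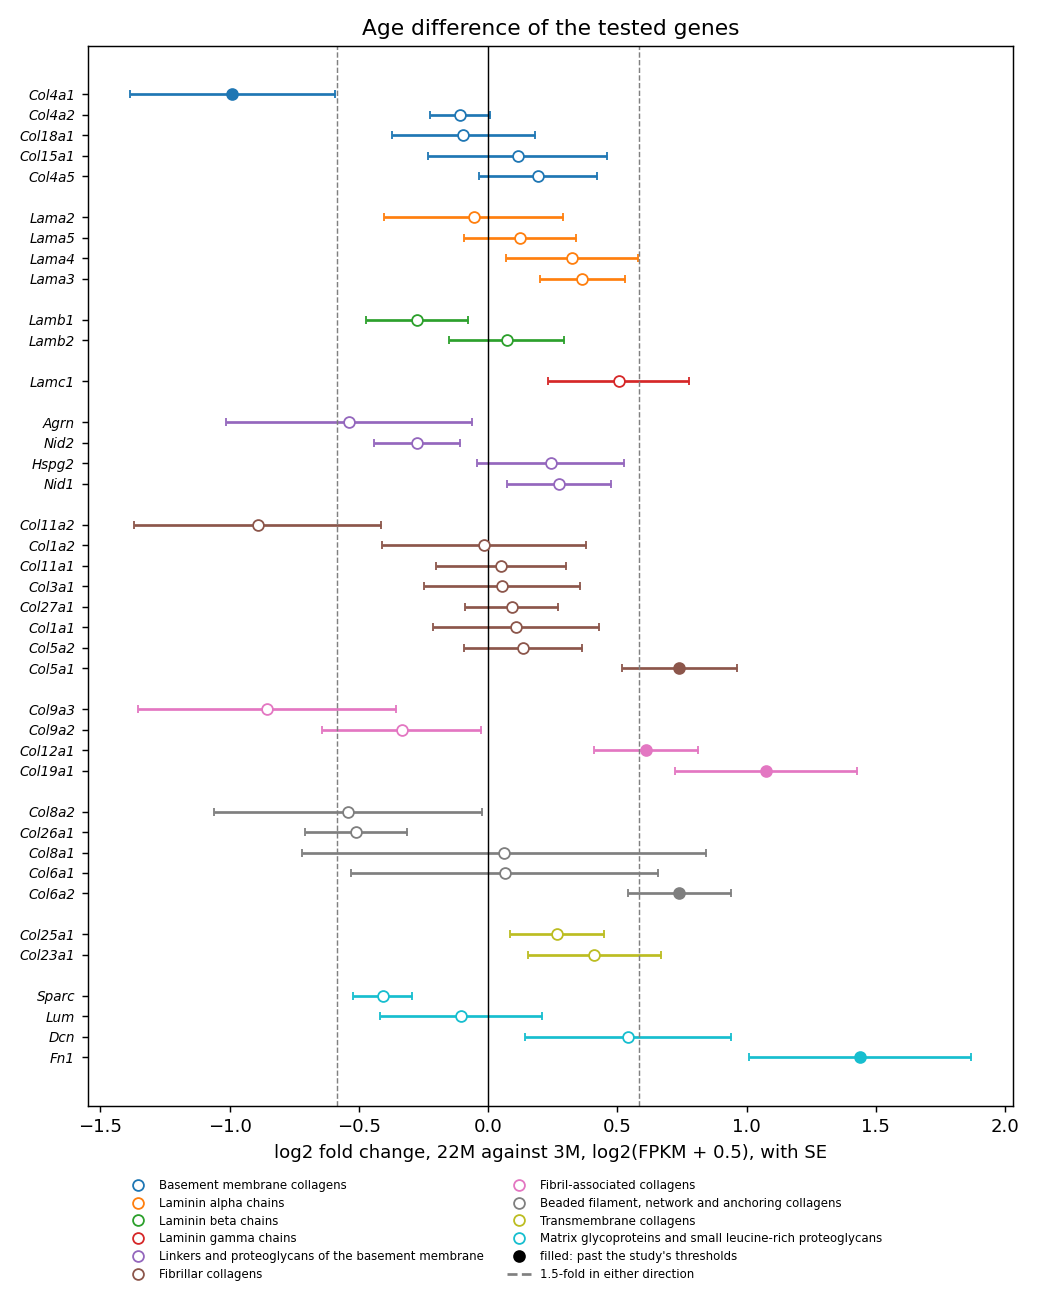
Log2 fold change of the tested genes reported here, 22M against 3M, on the log2(FPKM + 0.5) scale, with its standard error, ordered by role. Filled points passed the study's thresholds (dashed lines at 1.5-fold in either direction): Fn1 at 1.44, Col19a1 at 1.08, Col6a2 and Col5a1 at 0.74 and Col12a1 at 0.61 lie to the right and Col4a1 at -0.99 to the left, while the open points were not past them.

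The level of these genes was mostly low. Of the 40 tested genes, 13 had a mean under 1 FPKM, 25 between 1 and 10 FPKM and 2 over 10 FPKM, Sparc and Dcn. Together the 42 genes made up 0.0868% to 0.109% of a library's FPKM, and Sparc alone took 53.2% to 70.1% of that. FPKM is scaled by length, so these levels can be set beside each other between genes. Fold changes on the log2(FPKM + 0.5) scale understate the change of genes at such low levels. The lists of symbols by role held 64 names, of which 22 were not in the table analysed, which lists only transcripts averaging 0.5 FPKM or more in either age group. Among those not analysed here were Lama1, Lamb3, Col4a3, Col4a4 and Col4a6, Col2a1 of cartilage, and Col6a3.

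Of the collagen IV chains, Col4a1 passed the study's thresholds, lower in 22M, and Col4a2 did not. Col4a1 and Col4a2 encode the chains of the collagen IV trimer found in nearly every basement membrane. The genes lie head to head on chromosome 8, Col4a1 on the minus strand from 11198423 to 11312826 and Col4a2 on the plus strand from 11312805 to 11449287 (GRCm38), so the annotated starts overlap by 22 bases. The stretch is shown because both transcripts begin in it, on the plus strand of RefSeq's GRCm38.p6 at chr8:11312801-11312830, with the shared 22 bases in capitals. They are a small piece of transcripts of 6615 and 6450 bases.
Col4a1 and Col4a2 starts: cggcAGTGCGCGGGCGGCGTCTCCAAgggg
Col4a1 was at 5.54, 2.21 and 3.33 FPKM in the 3M libraries and 1.67, 2.43 and 0.764 FPKM in the 22M libraries. J11 stood highest and 78 lowest, and 76 lay above J13, so the ages overlapped. The log2 fold change was -0.99 (SE 0.396, adjusted p = 0.170 by limma), and it was -0.69 without J11 and -0.66 without 78. With J11, J15, 72 or 78 left out singly the gene was no longer lower at the study's thresholds, the unadjusted limma p lying between 0.0746 and 0.129. Col4a2 was steadier, at 8.93, 8.33 and 7.56 FPKM in the 3M libraries and 6.85, 8.13 and 7.94 FPKM in the 22M libraries, with a log2 fold change of -0.11 (SE 0.117, adjusted p = 0.587 by limma). The highest library exceeded the lowest by 7.26-fold for Col4a1 and by 1.30-fold for Col4a2. The ratio of Col4a1 to Col4a2 was 0.621, 0.266 and 0.440 in J11, J13 and J15 and 0.243, 0.298 and 0.0962 in 72, 76 and 78.
The other collagens of basement membranes did not pass either threshold. Col4a5, a chain of a trimer known from the kidney filter, was at 0.552 ± 0.128 and 0.717 ± 0.270 FPKM (mean ± SD, n = 3 libraries each), and Col15a1 and Col18a1, which carry sugar chains and lie at the edge of basement membranes, had log2 fold changes of 0.11 and -0.10. By summed level, the 5 basement membrane collagens were at 12.3 to 16.6 FPKM in 3M and 10.3 to 13.1 FPKM in 22M.

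No laminin chain passed the study's thresholds with all 6 libraries and equal weights. Lama2, the alpha chain of the laminin made by astrocytes and muscle, was at 2.48, 1.09 and 2.73 FPKM in the 3M libraries and 2.58, 2.12 and 1.19 FPKM in the 22M libraries, with the ages interleaved and a log2 fold change of -0.06 (SE 0.346, adjusted p = 0.931 by limma). Its sign turned under 6 settings, among them each of leaving out J11, J15 or 78. Lama3, the alpha chain of epithelial laminin, was at 0.509, 0.432 and 0.531 FPKM in the 3M libraries and 0.805, 0.706 and 0.813 FPKM in the 22M libraries. All 22M libraries lay above all 3M libraries, with a log2 fold change of 0.36 (SE 0.165, adjusted p = 0.213 by limma) that became -0.03 once length and GC content were corrected for, as described with the lengths. The mean of Lama3 was 0.491 FPKM in 3M and 0.775 FPKM in 22M, so it is in the table only through 22M. Lama4 and Lama5, the alpha chains of the endothelial basement membrane, had log2 fold changes of 0.32 (SE 0.256) and 0.12 (SE 0.216) with overlapping ages. Lama4, with means of 0.407 FPKM in 3M and 0.633 FPKM in 22M, is also in the table only through 22M.
Lamb1, a beta chain of most brain laminins, was at 3.67, 3.54 and 5.19 FPKM in the 3M libraries and 2.60, 3.72 and 3.64 FPKM in the 22M libraries (log2 fold change -0.28, SE 0.198, adjusted p = 0.407 by limma). J15 was highest and 72 lowest, and the other libraries lay close together. Lamb2, the beta chain of mature vessels and of the neuromuscular junction, was at 2.75 ± 0.313 and 2.99 ± 0.892 FPKM. Lamc1, the gamma chain in most laminins, was at 5.76, 4.48 and 5.99 FPKM in the 3M libraries and 6.98, 12.1 and 5.64 FPKM in the 22M libraries. Library 76 stood apart, and the log2 fold change of 0.50 (SE 0.273, adjusted p = 0.283 by limma) became -0.04 for the long transcript alone. Without 78 it was 0.72 and with array weights 0.81, and in both settings Lamc1 was higher at the study's thresholds. Of the 12.1 FPKM in 76, 8.73 were assigned to Lamc1-204, a transcript of 3 exons and 1447 bases that was at most 0.999 FPKM in the other libraries, while Lamc1-201, with 28 exons, was at 3.35 FPKM in 76 and 4.48 to 6.12 FPKM elsewhere. Lamc3 was under the filter and not tested, and was at 0.624 and 0.285 FPKM in J11 and J13, listed at 0 in J15, and at 0.638, 0.692 and 0.729 FPKM in the 22M libraries. With a 3M mean of 0.303 FPKM, it is in the table only through 22M.

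The linkers of the basement membrane showed no common direction. Agrn, which encodes agrin, the organiser of the neuromuscular junction, was at 6.14, 6.38 and 8.03 FPKM in the 3M libraries and 1.89, 4.92 and 9.33 FPKM in the 22M libraries. The 22M libraries held both the lowest and the highest value, and the log2 fold change was -0.54 (SE 0.477, adjusted p = 0.50 by limma). Without 72 it was -0.00027, and without 78 it was -1.02, where Agrn was lower at the study's thresholds. Nid2, a nidogen that joins laminin to collagen IV, was at 1.19, 1.37 and 0.985 FPKM in the 3M libraries and 0.866, 0.948 and 0.843 FPKM in the 22M libraries. The ages did not overlap, by a narrow gap between J15 and 76, and the log2 fold change was -0.27 (SE 0.166, adjusted p = 0.329 by limma). The related Nid1 was at 1.55 ± 0.188 and 2.02 ± 0.551 FPKM, with a log2 fold change of 0.27 (SE 0.200), and Hspg2, which encodes perlecan, was at 0.575 ± 0.119 and 0.814 ± 0.408 FPKM.

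Fn1, which encodes fibronectin, a glycoprotein that cells bind through integrins and that also circulates in plasma, had the largest positive fold change of the 40 genes. It was at 3.62, 1.49 and 6.28 FPKM in the 3M libraries and 11.7, 10.5 and 7.76 FPKM in the 22M libraries. All 22M libraries lay above all 3M libraries, with the smallest gap between J15 and 78. The mean went from 3.80 ± 2.40 FPKM to 9.99 ± 2.03 FPKM (SD, n = 3 libraries each), and the log2 fold change was 1.44 (SE 0.429, adjusted p = 0.0995 by limma). It stayed higher at the study's thresholds when any single library was left out and after the correction for length and GC content (1.20). Of the red blood cell markers, 5 of 5 rose, against 0.92% of all genes, and their sum was 590 to 633 FPKM in 3M and 2046, 1966 and 1329 FPKM in the 22M libraries. Their part in the Fn1 values was not tested.
On chromosome 1 the gene runs on the minus strand from 71585520 to 71653200, and 8 of its transcripts are in the table. The full-length ones differ, among other things, by the extra domains EDB and EDA, each a single exon that is spliced in or out. Plasma fibronectin from the liver lacks both. Transcripts alike in these exons still differ in length, such as Fn1-203 with 7797 bases and Fn1-216 with 7410 bases. Both exons are shown because the transcripts with and without them had different levels. They are given whole, in lower case and in the sense of the gene, as read from the GENCODE vM21 transcripts on GRCm38. EDB, at chr1:71613763-71614035, has 273 bases and is exon 25 of Fn1-201, and EDA, at chr1:71603660-71603929, has 270 bases and is exon 33.
EDB exon of Fn1: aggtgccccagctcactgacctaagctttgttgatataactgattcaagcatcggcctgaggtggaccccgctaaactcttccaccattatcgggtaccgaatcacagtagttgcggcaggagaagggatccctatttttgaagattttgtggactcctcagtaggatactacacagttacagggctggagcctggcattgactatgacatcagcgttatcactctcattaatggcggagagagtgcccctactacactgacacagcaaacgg
EDA exon of Fn1: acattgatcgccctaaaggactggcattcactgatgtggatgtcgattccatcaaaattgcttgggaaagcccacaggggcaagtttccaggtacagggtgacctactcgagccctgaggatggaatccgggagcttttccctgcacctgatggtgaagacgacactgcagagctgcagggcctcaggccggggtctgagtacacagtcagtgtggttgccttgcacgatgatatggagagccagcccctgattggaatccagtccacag
Fn1-201, the only listed transcript with both exons, was at 1.13, 1.13 and 5.02 FPKM in the 3M libraries and 2.20, 2.01 and 2.62 FPKM in the 22M libraries. The 22M libraries lay within the range of the 3M libraries. The 6 full-length transcripts without EDB summed to 1.14, 0.137 and 0.986 FPKM in the 3M libraries and to 9.12, 8.14 and 4.73 FPKM in the 22M libraries, or 0.753 ± 0.539 against 7.33 ± 2.30 FPKM. Here the ages were far apart, and these transcripts made up 31.4%, 9.16% and 15.7% of Fn1 in J11, J13 and J15 and 77.7%, 77.8% and 61.0% in the 22M libraries. Of them, the 3 with EDA were at 0.632, 0.132 and 0.125 FPKM in the 3M libraries and 4.48, 4.15 and 1.87 FPKM in the 22M libraries. The 3 with neither exon were at 0.505, 0.00486 and 0.861 FPKM in the 3M libraries and 4.64, 3.99 and 2.86 FPKM in the 22M libraries, so both kinds stood higher in every 22M library. All 6 had a mean of at most 0.288 FPKM in 3M and of at least 1.04 FPKM in 22M. They are thus in the table only through 22M, since it lists transcripts averaging 0.5 FPKM or more in either age group. That rule selects for a gap in this direction, in these transcripts and in the Fn1 sum that holds them. The short Fn1-208, with means of 0.616 and 0.378 FPKM, was listed only through 3M.
In the fit over 23637 transcripts, none of these transcripts rose, and the lowest adjusted p among them was 0.0733, for Fn1-213, with a log2 fold change of 1.59 (SE 0.211, limma). Over all transcripts of the collagen and laminin genes, 0 of 55 tested rose or fell, against 0.207% of all transcripts, and 10 were higher at the study's thresholds, against 5.03% of all transcripts. Of these 10, 5 were transcripts of Fn1 and so not separate results. These 5, and the transcript of Col12a1, are in the table only through their 22M mean. The split by exon was chosen after the values were seen. In 72 the 6 transcripts without EDB lay between 1.30 and 1.64 FPKM each, close to an even division, so the values of single Fn1 transcripts, which share nearly all their exons, are uncertain.

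**Figure D2:**
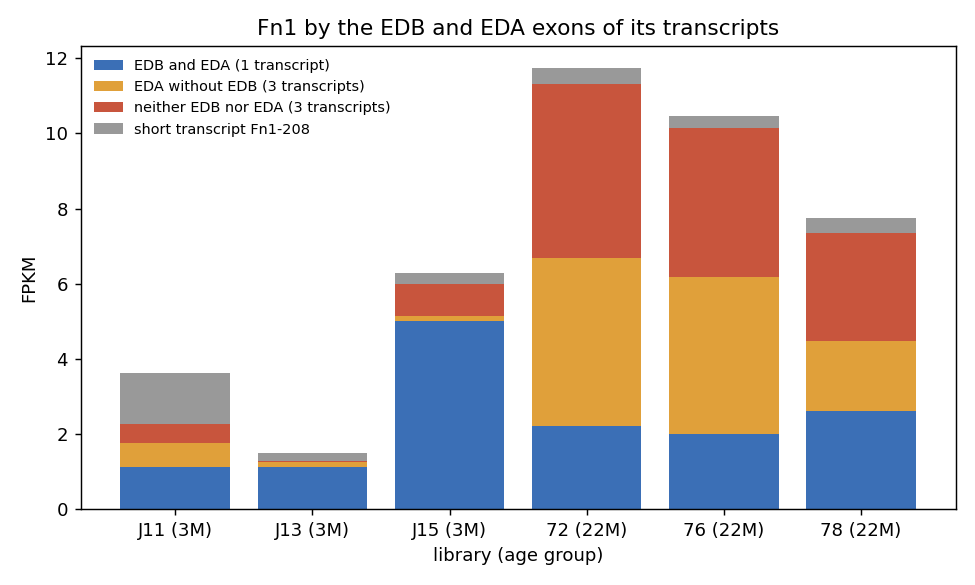
FPKM of Fn1 in each library, stacked by the exons its listed transcripts carry. The part with both EDB and EDA stays between 1.13 and 5.02 FPKM, while the parts without EDB together go from at most 1.14 FPKM in the 3M libraries to at least 4.73 FPKM in the 22M libraries. Each transcript without EDB is in the table only through its 22M level.

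Sparc, a secreted protein that binds calcium and collagen, was the most abundant of the 42 genes and was lower in every 22M library. It was at 271, 244 and 206 FPKM in the 3M libraries and 184, 187 and 169 FPKM in the 22M libraries. The ages did not overlap, J15 being the closest 3M library, and the mean went from 240 ± 32.3 to 180 ± 9.39 FPKM (SD, n = 3 libraries each). The log2 fold change of -0.41 (SE 0.113, adjusted p = 0.0873 by limma) was under the size the study's thresholds ask for. Without J15 it was -0.51, and Sparc fell by the adjusted test (adjusted p = 0.0479). It was -0.27 after the correction for length and GC content (adjusted p = 0.207 by limma), -0.20 with quantile normalization (adjusted p = 0.197 by limma) and -0.27 without J11 and 78 together. The sum was used because the transcripts of Sparc traded places. Sparc-202 was at 240 FPKM in J11 and 4.39 FPKM in J13, where Sparc-201 stood at 233 FPKM against 19.5 FPKM in J11.
In the brain Sparc is made by microglia, astrocytes and vessel cells. The 9 microglia markers, of which 0 rose or fell, summed to 363, 266 and 281 FPKM in the 3M libraries. In the 22M libraries they summed to 256, 245 and 232 FPKM, without overlap. J11 was highest and 78 lowest, as for Sparc, but the libraries between had another order. Of the 9 markers, 5 were lowest in 78. The median log2 fold change of the 9 microglia markers was -0.30, and -0.10 after the correction for length and GC content. The 9 astrocyte markers, of which 0 rose or fell, summed to 803 to 818 FPKM in 3M and 836 to 949 FPKM in 22M. These sums did not overlap either, but were higher in 22M. For the 17 endothelial markers the sums overlapped, at 174 to 188 FPKM in 3M and 134 to 181 FPKM in 22M. The part of these cells in the Sparc values was not tested.
Dcn and Lum, the small leucine-rich proteoglycans decorin and lumican of collagen fibrils, were named after their values were seen. Dcn was at 27.5, 55.6 and 20.4 FPKM in the 3M libraries and 31.6, 60.9 and 50.9 FPKM in the 22M libraries (log2 fold change 0.54, SE 0.397, adjusted p = 0.417 by limma). J13 and 76 were the highest, and the ages overlapped. Without J13 the fold change was 0.94, and Dcn was higher at the study's thresholds. Lum was at 1.83 ± 0.684 and 1.67 ± 0.616 FPKM.

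**Figure D3:**
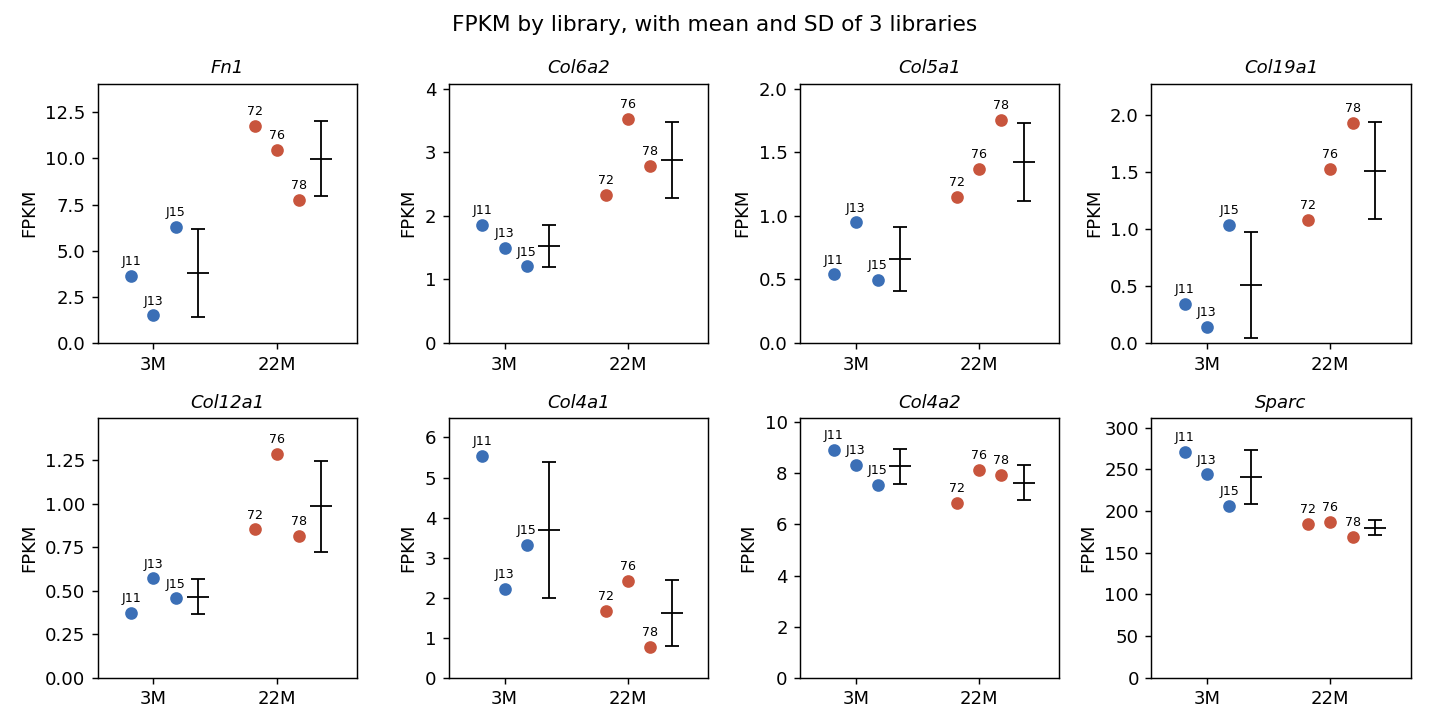
FPKM per library (points, with library names) and mean with SD of 3 libraries (bars beside the points) for 8 genes in 3M and 22M. All 22M points lie above all 3M points for Fn1, Col6a2, Col5a1, Col19a1 and Col12a1 and below them for Sparc, while the ages overlap for Col4a1 and Col4a2.

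Among the fibrillar collagens, Col5a1 alone was higher at the study's thresholds. Col5a1, a chain of collagen V, which starts the assembly of collagen I fibrils, was at 0.539, 0.948 and 0.493 FPKM in the 3M libraries and 1.15, 1.37 and 1.75 FPKM in the 22M libraries. Every 22M library exceeded J13, the highest 3M library. The log2 fold change was 0.74 (SE 0.223, adjusted p = 0.101 by limma), and 0.52, no longer past the thresholds, after the correction for length and GC content. Its partner chain Col5a2 was at 0.661 ± 0.197 and 0.777 ± 0.241 FPKM.
The chains of collagen I and collagen III, the bulk collagens of connective tissue, showed no order by age. Col1a2 was at 1.75, 3.13 and 2.15 FPKM in the 3M libraries and 2.12, 4.29 and 1.17 FPKM in the 22M libraries. The 22M libraries spanned both extremes, 76 the highest and 78 the lowest, and the log2 fold change was -0.02 (SE 0.395, adjusted p = 0.982 by limma). Col1a1 and Col3a1, looked at after these values were seen, were also highest in 76 and lowest in 78, at 3.70 and 1.27 FPKM for Col1a1 and 1.02 and 0.241 FPKM for Col3a1. The ratio of Col3a1 to Col1a2 stayed between 0.176 and 0.238, a 1.36-fold range, while Col1a2 itself ranged over 3.67-fold and Col3a1 over 4.24-fold. The ratio of Col1a1 to Col1a2 ranged from 0.654 to 1.09. For comparison, the ratio of Col4a1 to Col4a2 spread over 6.46-fold.
Fibroblast and meningeal markers were mostly highest in 76 too, but were not mostly lowest in 78. Of 13 such markers in the table, 10 were highest in 76 and 4 lowest in 78 (Apod, Igfbp2, Igf2 and Slc6a13), none was at 0 in any library, and their sum was 196 to 205 FPKM in 3M and 191, 235 and 99.6 FPKM in the 22M libraries. None of the 13 rose or fell, and 3 were higher in 22M at the study's thresholds, against 4.08% of all genes. The median log2 fold change of the 13 was 0.42. The part of these cells in the values of the fibrillar collagens was not tested. Col11a1, Col11a2 and Col27a1, known from cartilage, did not pass the thresholds, with log2 fold changes of 0.05, -0.89 and 0.09, and Col11a2 was listed at 0 in 72. Without 76, Col11a2 was lower at the study's thresholds (-1.23).

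Of the collagens that sit on the surface of fibrils, Col19a1 and Col12a1 were higher in 22M at the study's thresholds. Col19a1, which in the mouse hippocampus is made by interneurons, was at 0.344, 0.142 and 1.03 FPKM in the 3M libraries and 1.08, 1.52 and 1.93 FPKM in the 22M libraries. The ages did not overlap, but J15 and 72 nearly touched. The log2 fold change was 1.08 (SE 0.352, adjusted p = 0.119 by limma), 1.02 after the correction for length and GC content. With J11, J13 or 78 left out singly the unadjusted limma p lay between 0.0552 and 0.0640, and the gene was no longer higher at the study's thresholds. The transcript Col19a1-201 was listed at 0 in all 3M libraries and was at 0.623, 0.536 and 0.774 FPKM in the 22M libraries, while Col19a1-202 was at 0.142 to 1.03 FPKM in 3M and 0.456 to 1.16 FPKM in 22M. Col19a1-201 is thus in the table only through its 22M mean of 0.645 FPKM. For Col19a1-202 alone the log2 fold change was 0.50 (SE 0.416, adjusted p = 0.580 by limma over transcripts).
Col12a1, a collagen of tendon and other dense tissue, was at 0.374, 0.570 and 0.455 FPKM in the 3M libraries and 0.851, 1.28 and 0.814 FPKM in the 22M libraries. All 22M libraries were above all 3M libraries, with a log2 fold change of 0.61 (SE 0.201, adjusted p = 0.120 by limma). Its mean was 0.466 FPKM in 3M and 0.983 FPKM in 22M, so it is in the table only through 22M. Its transcript of 11511 bases is among the longest, and the fold change became 0.15 after the correction for length and GC content. It also missed the thresholds without J11 (0.54) or without 76 (0.47). Col16a1, another collagen of this kind, was not tested, since its mean lay under the filter. The 3M libraries gave 0.248, 1.10 and 0.355 FPKM, and it was at 0.117 FPKM in 76 and listed at 0 in 72 and 78. Col16a1 is thus in the table only through its 3M mean of 0.567 FPKM.

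Col9a3, a chain of collagen IX known from cartilage, had both its highest and its lowest value among the 22M libraries. It was at 5.54, 5.93 and 6.88 FPKM in the 3M libraries and 7.10, 3.24 and 1.20 FPKM in the 22M libraries, with a log2 fold change of -0.86 (SE 0.499, adjusted p = 0.316 by limma). Library 72 was the highest and 78 the lowest of all 6. The fold change was -1.39 without 72, where Col9a3 was lower at the study's thresholds, and -0.31 without 78. Its partner chain Col9a2 was at 1.37 ± 0.523 and 0.999 ± 0.504 FPKM.
The chains of collagen VIII, the network-forming collagen of the cornea's inner membrane, had the same order in the 22M libraries and were singled out after their values were seen. Col8a1 was at 1.08, 1.70 and 2.31 FPKM in the 3M libraries and 6.34, 1.88 and 0.178 FPKM in the 22M libraries. Col8a2 was at 2.61, 2.99 and 4.45 FPKM in the 3M libraries and 4.67, 2.37 and 0.678 FPKM in the 22M libraries. Library 72 was again the highest and 78 the lowest, a 35.6-fold range for Col8a1 and a 6.88-fold range for Col8a2. Their log2 fold changes of 0.06 (SE 0.780) and -0.54 (SE 0.518) became -0.75 and -1.04 without 72 and 0.92 and 0.03 without 78. The ratio of Col8a1 to Col8a2 was 0.413, 0.567 and 0.518 in the 3M libraries and 1.36, 0.796 and 0.263 in 72, 76 and 78, a 5.17-fold range.
The upstream sequences of both genes are shown because both genes were highest in 72 and lowest in 78. They are the 250 bases before the RefSeq start (GRCm38.p6), on the strand of the gene, at chr16:57754738-57754987 for Col8a1 (minus strand) and chr4:126286544-126286793 for Col8a2 (plus strand). The letters GGGCGG and their reverse complement, looked for on both strands with overlaps allowed, are in capitals.
Col8a1 upstream: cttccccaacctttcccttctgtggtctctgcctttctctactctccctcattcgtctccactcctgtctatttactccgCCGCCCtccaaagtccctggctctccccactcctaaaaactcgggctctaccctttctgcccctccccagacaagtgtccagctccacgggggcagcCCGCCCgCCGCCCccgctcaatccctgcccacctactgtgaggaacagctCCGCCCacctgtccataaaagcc
Col8a2 upstream: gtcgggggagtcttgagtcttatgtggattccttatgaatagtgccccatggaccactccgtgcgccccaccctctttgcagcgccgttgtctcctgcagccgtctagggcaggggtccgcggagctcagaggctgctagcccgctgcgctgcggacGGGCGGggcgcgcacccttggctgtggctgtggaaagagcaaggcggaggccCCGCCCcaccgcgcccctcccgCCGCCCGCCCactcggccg
Each window held 4 matches to GGGCGG, which 32.9% of 27025 promoter windows of the same length hold at least once. Neither held TATAAA (12.97% of windows) or CCAAT (34.5%) on either strand. A match describes the letters only.
The choroid plexus markers had their highest and lowest values in the same libraries as these 3 collagens. All 12 of 12 markers were highest in 72 and lowest in 78, and they summed to 2202, 1885 and 2885 FPKM in the 3M libraries and 3393, 1425 and 192 FPKM in the 22M libraries. Among the 3M libraries that sum was lowest in J13, while all 3 collagens were lowest in J11. None of the markers was at 0 in any library. Ttr, which encodes the transthyretin secreted by the choroid plexus, was at 1860, 1566 and 2398 FPKM in the 3M libraries and 2669, 1098 and 122 FPKM in the 22M libraries, a 21.9-fold range. The collagens did not follow Ttr in proportion, but some of the other markers did not either. From 72 to 78, Kl went from 48.8 to 7.11 FPKM and Enpp2 from 498 to 53.2 FPKM, smaller drops than that of Ttr. The drops of Aqp1, Kcne2, Slc4a5 and Folr1 were larger than that of Ttr. A departure from Ttr was thus not a trait of the collagens alone. Per 1000 FPKM of Ttr, Col9a3 was at 9.84 FPKM in 78 and at 2.66 to 3.78 FPKM elsewhere. Col8a2 was at 5.57 FPKM in 78 and at 1.41 to 2.16 FPKM elsewhere, and Col8a1 went from 0.581 FPKM in J11 to 2.38 FPKM in 72. None of the 12 rose or fell, and their median log2 fold change was -0.56. The part of choroid plexus in the values of Col9a3, Col8a1 and Col8a2 was not tested.

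**Figure D4:**
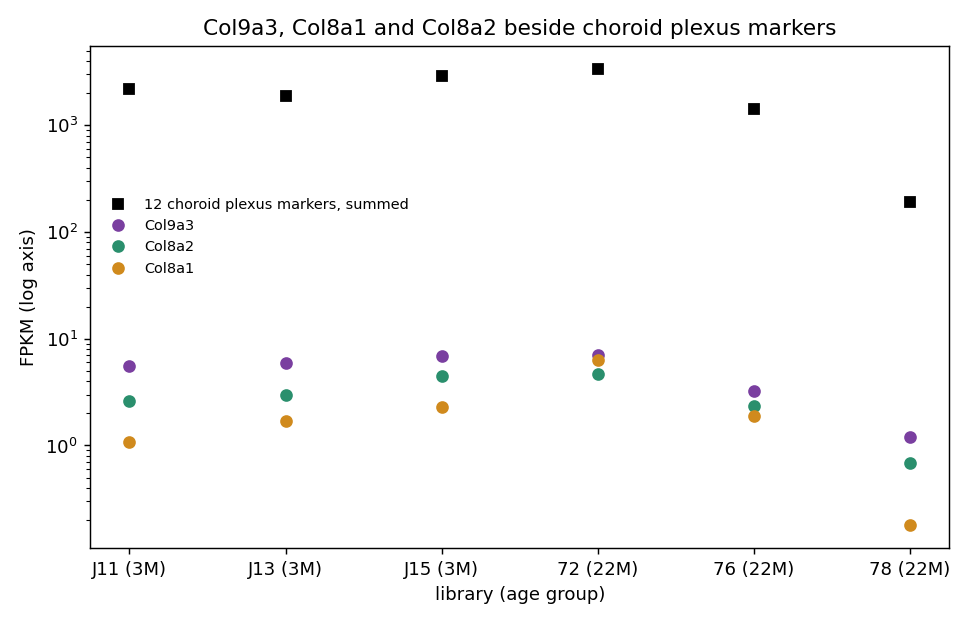
FPKM (log axis) of Col9a3, Col8a1 and Col8a2 and the summed FPKM of 12 choroid plexus markers in each library. All of them are highest in 72 and lowest in 78, where the markers sum to 192 FPKM against 3393 FPKM in 72.

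The collagen VI chains, which form beaded filaments around cells, differed from each other too. Col6a2 was at 1.86, 1.49 and 1.20 FPKM in the 3M libraries and 2.33, 3.53 and 2.78 FPKM in the 22M libraries. Every 22M library was above every 3M library, and the mean went from 1.52 ± 0.330 to 2.88 ± 0.606 FPKM (SD, n = 3 libraries each). The log2 fold change of 0.74 (SE 0.200, adjusted p = 0.0845 by limma) was 0.79 after the correction for length and GC content, and it stayed past the study's thresholds when any single library was left out. Col6a1, its neighbour on chromosome 10, was at 13.4, 3.44 and 2.26 FPKM in the 3M libraries and 3.32, 6.62 and 5.84 FPKM in the 22M libraries. J11 stood far above the rest, with a ratio of Col6a1 to Col6a2 of 7.18 against 1.43 to 2.31 in the other libraries, and the log2 fold change was 0.06 (SE 0.595, adjusted p = 0.955 by limma). Col26a1, named after its values were seen, is a collagen first known from testis and ovary and was at 0.755, 0.796 and 0.577 FPKM in the 3M libraries and 0.300, 0.492 and 0.264 FPKM in the 22M libraries. The ages did not overlap, with a log2 fold change of -0.51 (SE 0.197, adjusted p = 0.159 by limma). Its mean was 0.709 FPKM in 3M and 0.352 FPKM in 22M, so it is in the table only through 3M. With a pseudocount of 0.1 (-0.86), without J15 (-0.59) or without 76 (-0.62), Col26a1 passed the study's thresholds as lower.

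The transmembrane collagens did not pass the thresholds. Col25a1, a neuronal collagen found in amyloid plaques, was at 1.89, 1.57 and 2.41 FPKM in the 3M libraries and 2.18, 2.83 and 2.29 FPKM in the 22M libraries (log2 fold change 0.27, SE 0.182, adjusted p = 0.386 by limma). The ages overlapped in the sum but not in the transcript Col25a1-201, at 0.699, 0.804 and 0.909 FPKM in the 3M libraries and 1.76, 1.91 and 1.60 FPKM in the 22M libraries (log2 fold change 0.79, SE 0.189, adjusted p = 0.149 by limma over transcripts). The means of Col25a1-202 had the other order, at 1.15 ± 0.370 and 0.680 ± 0.246 FPKM. Col23a1 was at 1.85, 1.39 and 0.842 FPKM in the 3M libraries and 1.54, 2.45 and 1.83 FPKM in the 22M libraries (log2 fold change 0.41, SE 0.256, adjusted p = 0.344 by limma), with the ages interleaved.

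The transcripts of these genes are long, and fold changes in this series went with length. The median transcript length was 5644 bases for the 40 genes and 2922 bases for all genes tested. When all genes were split by length into 10 equal groups, the median log2 fold change went from -0.34 in the group of the shortest transcripts to 0.31 in the group of the longest. The 2 longest groups held 29 of the 40 genes, with a median of 0.11 against 0.23 for all 2606 genes there, and 3 of the 29 were higher at the study's thresholds (Fn1, Col5a1 and Col12a1) against 9.98% of all genes there. Against the median of its own length group, 14 of the 40 genes lay above and 26 below, with a median difference of -0.11. After each library was corrected for transcript length and GC content, the median of the 40 genes was -0.10, against -0.02 for all genes, with 15 positive and 25 negative, and 3 were higher (Fn1, Col6a2 and Col19a1) and 1 was lower (Col4a1) at the study's thresholds. Among all genes, 3.22% were then higher and 2.03% lower. Thus the sign of the median turned with this correction. Why fold changes went with length was not tested.

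**Figure D5:**
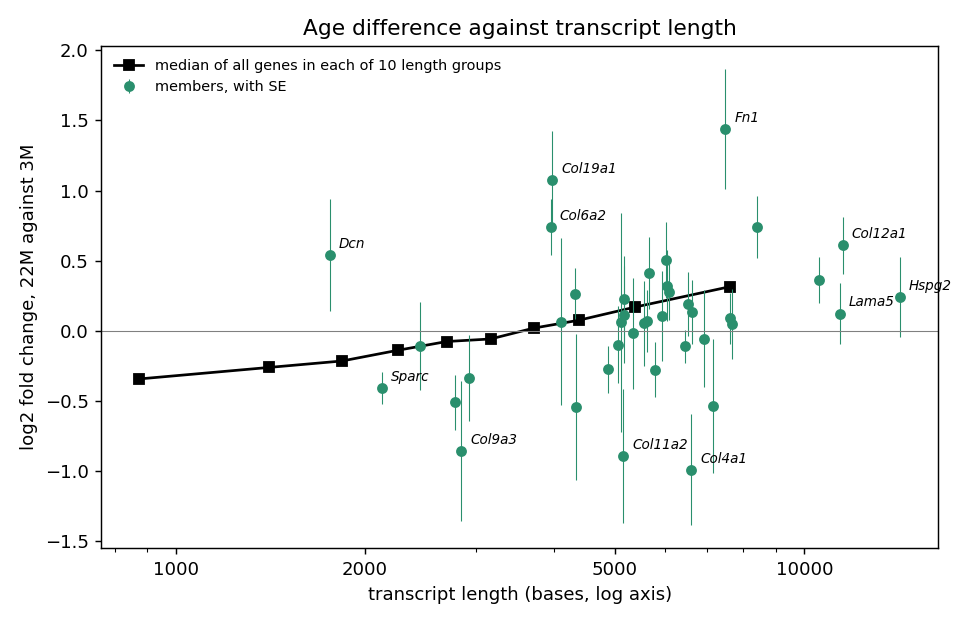
Log2 fold change (22M against 3M) of the 40 tested genes, with SE, against transcript length in bases (log axis), and the median of all genes in each of 10 length groups (squares). The squares climb from -0.34 to 0.31, and 26 of the 40 genes lie below the median of their own length group, while Fn1, Col6a2, Col19a1 and Dcn lie well above theirs.

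Across libraries, 76 most often held the highest value and 78 the lowest. Of the 42 genes, 16 had their highest value in 76 and 0 their lowest, while 16 had their lowest value in 78 and 7 their highest. The same shares over all genes are not given here, so these counts cannot be read as a trait of the 42 genes. The FPKM of all genes together was also lowest in 78, at 318024. In 78 lay the lowest value of 9 of 10 oligodendrocyte markers and of 3 of 9 astrocyte markers. Markers of vessel cells showed the same libraries at the ends of the 22M range. The 17 endothelial markers summed to 174 to 188 FPKM in 3M and to 160, 181 and 134 FPKM in the 22M libraries. Of them 0 were higher and 1 was lower, against 4.08% and 4.22% of all genes, with a median log2 fold change of -0.16. The 11 mural cell markers summed to 123 to 138 FPKM in 3M and to 117, 172 and 81.1 FPKM in the 22M libraries, and 9 of them were highest in 76. The part of vessel cells in the collagen and laminin values was not tested. With J11 and 78 left out together, a setting chosen after seeing the data, 2 genes were higher (Fn1 and Col6a2) and 0 lower, and the median of the 40 genes was 0.26. The shares of all genes in that setting are not given here.

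The receptors for collagens and laminins and the enzymes that fold collagen were counted by the same fit. Of 24 receptor genes listed, 19 were tested and 0 rose or fell, against 2.13% of all genes. Of the 19, 2 were higher in 22M at the study's thresholds, against 4.08% of all genes, with a median log2 fold change of 0.06. Lrp4, the receptor through which agrin acts at the neuromuscular junction, was at 3.41, 3.31 and 4.35 FPKM in the 3M libraries and 5.61, 6.22 and 6.11 FPKM in the 22M libraries, without overlap (log2 fold change 0.64, SE 0.137, adjusted p = 0.0602 by limma). Ddr2, a receptor kinase for fibrillar collagens, was at 0.695 ± 0.225 and 1.52 ± 0.411 FPKM (log2 fold change 0.75, adjusted p = 0.109 by limma), and Itga6, an integrin chain that binds laminin, was at 3.35 ± 0.485 and 4.88 ± 0.272 FPKM (0.49, adjusted p = 0.0921 by limma). After the correction for length and GC content the fold change was 0.39 for Lrp4, 0.40 for Ddr2 and 0.38 for Itga6, each under the size the study's thresholds ask for.
Of 31 genes for collagen modification and folding, 25 were tested and 0 rose or fell. At the study's thresholds 1 was higher and 2 were lower, against 4.08% and 4.22% of all genes, with a median of -0.12. Serpinh1, the chaperone of procollagen in the endoplasmic reticulum, was at 10.6, 10.5 and 9.93 FPKM in the 3M libraries and 7.04, 3.89 and 6.05 FPKM in the 22M libraries, without overlap (log2 fold change -0.85, SE 0.203, adjusted p = 0.0692 by limma). P4ha2, a subunit of the collagen prolyl hydroxylase, was at 3.00 ± 0.708 and 1.41 ± 0.433 FPKM (-0.88, adjusted p = 0.0805 by limma). Ppib, a prolyl isomerase that helps collagen to fold, was at 90.7 ± 2.75 and 69.8 ± 8.60 FPKM (-0.38, adjusted p = 0.0856 by limma). After the correction for length and GC content the fold change was -0.10 for Ppib. For Serpinh1 and P4ha2 it was -0.65 and -0.73, still beyond the size the study's thresholds ask for. The higher gene, named as the only one of its count, was Adamts2, a protease that trims procollagen, at 0.642 ± 0.115 and 1.29 ± 0.441 FPKM, with a log2 fold change of 0.62 that became 0.40, under the study's size threshold, after the correction.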

How the data were processed

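Hippocampal mRNA of 6 libraries was quantified by the authors as FPKM per protein-coding transcript, and the deposited FPKM of 25409 transcripts were summed to 13321 genes. HISAT2 and GRCm38 (mm10) stand in the submitters' processing notes. Which program quantified them, whether it used strand, and with which annotation, is not given in the sources used here. FPKM keep no counts, so the depth is unknown and only the spread between libraries gives the precision.

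Genes averaging 0.5 FPKM or more entered a two-sided limma test (limma 3.58.1, R 4.3.3, with a variance trend, a pseudocount of 0.5 and no covariate), and single values also by exact permutation. Lengths and coordinates came from GENCODE vM21, promoters from RefSeq, where 28 of the 42 genes matched. Length and GC content were corrected per library with splines of 4 degrees of freedom each. The limma test was also run on simulated data with independent noise of the variance that limma itself fitted. Such data hold no trend with length and no shift of whole libraries. The simulation therefore cannot show how the test does where these are present. Alternatives were other pseudocounts, filters, scalings, limma without a trend, array weights, single transcripts and leaving out libraries.

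The genes, lists and tests were chosen with earlier results of these data known. Values per library were given for genes past the study's thresholds, for the highest mean and the smallest P in each role group, for tested head-to-head pairs, and for up to 3 genes of a pathway list by P, and other genes are marked as chosen after their values were seen or as members of a count. The values of 1 tested gene are counted but not reported here.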

Additional observations from a re-analysis of the deposited data

How the results depend on the processing

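Of the 321 values of 19 named genes over up to 17 alternatives, 299 kept direction and side of the adjusted threshold, 20 changed sign and 2 passed the threshold. These 2 were Col6a2 with array weights (0.87, adjusted p = 0.0413), which made the count of genes that rose 1 of 40, and Sparc without J15. At the study's thresholds the count of higher genes was 3 with a pseudocount of 1, 3 after the length and GC correction, 6 with array weights, where Lamc1 was added, and 2 without J11 and 78 together (a setting added after seeing the data). The count of lower genes was 2 with a pseudocount of 0.1, 2 with no filter on low values and 0 with array weights, with single transcripts and without J11 and 78 together. The median of the 40 genes was -0.10 after the length and GC correction and 0.26 without J11 and 78. Leaving out 1 library at a time gave 0 genes that rose, 0 to 1 that fell, 3 to 5 higher, 0 to 3 lower and medians from -0.03 to 0.23. Apart from the length and GC correction, the shares of all genes called under these gene-level alternatives are not given here. Such counts therefore cannot be told from a general shift in calls. Col1a2 turned to 0.026 with median-of-ratios scaling, 0.023 with quantile normalization, 0.31 with array weights and 0.19 without J11 and 78. Lama2 turned to 0.088 with array weights, 0.33 without J11 and 78 and 0.49 for its transcript Lama2-201. Lama3 turned to -0.031 after the length and GC correction, and for single transcripts Lamc1 turned to -0.043 and Sparc to 1.43. With 1 library left out at a time, Col1a2 ranged from -0.42 to 0.34, Lama2 from -0.38 to 0.20 and Col6a1 from -0.41 to 0.75. The causes were not tested, except that leaving out a library leaves fewer values. No paired analysis was possible because the labels give the ages no shared replicate numbers.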

Other observations

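The proteases that cut matrix and their inhibitors were the last list counted. Of 25 such genes, 18 were tested and 0 rose or fell, against 2.13% of all genes. By the thresholds of the study 2 passed as higher in 22M, against 4.08% of all genes, and 0 as lower, against 4.22%. The median log2 fold change of the 18 was 0.02. Mmp16, a metalloproteinase anchored in the cell membrane, was at 3.38, 3.17 and 3.97 FPKM in the 3M libraries and 5.34, 5.29 and 6.28 FPKM in the 22M libraries, without overlap between the ages (log2 fold change 0.62, SE 0.135, adjusted p = 0.0609 by limma). Adamts1, a secreted protease that cuts proteoglycans, was at 3.46 ± 0.997 and 6.42 ± 1.46 FPKM (SD, n = 3 libraries each, log2 fold change 0.81, adjusted p = 0.0944 by limma). Timp4, an inhibitor of metalloproteinases, was at 9.33 ± 1.13 and 6.64 ± 0.399 FPKM (log2 fold change -0.46, adjusted p = 0.0840 by limma). After the correction for length and GC content the fold changes were 0.53 for Mmp16, under the study's size threshold, 0.66 for Adamts1 and -0.66 for Timp4.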
